A study of Mus musculus with 24 samples.

Results

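The clustered protocadherins are cell-surface adhesion proteins of the cadherin superfamily, encoded by 3 neighbouring gene clusters named Pcdha, Pcdhb and Pcdhg. Members were the protein-coding genes of the mouse annotation GENCODE M21 whose symbols begin with Pcdha, Pcdhb or Pcdhg, which gave 57 of the 55177 genes measured: 14 in Pcdha, 22 in Pcdhb and 21 in Pcdhg. On the assembly GRCm38, all lie on chromosome 18, with Pcdha from 36930184 to 37187661, Pcdhb from 37264938 to 37524479 and Pcdhg from 37661793 to 37841873. Pcdhgb8, whose biotype is polymorphic pseudogene, fell outside the rule. GENCODE gives the symbol Pcdha11 to 2 genes, and the one that RefSeq calls Pcdha10 is written Pcdha10 here and Pcdha11* in the plots.

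Each variable exon of Pcdha and Pcdhg has its own promoter and encodes an extracellular and transmembrane part, which is spliced to constant exons shared by the whole cluster, whereas each Pcdhb gene is a single exon that lacks such a shared end. Most promoters are chosen at random in single neurons through looping by CTCF and cohesin to distant enhancers, so that each neuron carries its own small combination of isoforms, which bind their own kind on other membranes and let sister dendrites recognise and avoid each other. The last variable exons of Pcdha and Pcdhg, the C-type members Pcdhac1, Pcdhac2, Pcdhgc3, Pcdhgc4 and Pcdhgc5, are used more regularly across neurons. Pcdhac2, Pcdhgc4, Pcdhgc5 and Pcdhb1 lack the conserved CTCF-binding element found at the other promoters.

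The study measured RNA in 24 cultures of primary neurons from mouse cortex at embryonic day 16.5, to find genes that depend on the BAF chromatin remodelling complex and on serine phosphorylation of Smarcc2, a core subunit of BAF also known as BAF170. Wild-type neurons after 7 days in vitro (DIV7) received 0.1% DMSO and were either at rest (2 libraries) or depolarised with 50 mM KCl for 30 minutes (2 libraries), and their RNA was selected by poly(A). Neurons after 18 days in vitro (DIV18) carried CRISPR guide RNAs, and their RNA was depleted of rRNA. These were a non-targeting guide (NT) at rest (2) and with KCl (2), Smarcc2 knockout with empty vector at rest (3) and with KCl (3), knockout with addback of WT Smarcc2 at rest (2) and with KCl (3), knockout with addback of Smarcc2(S586E) at rest (3), and knockout with addback of Smarcc2(S586A) with KCl (2). Every culture, KCl-treated ones included, was silenced overnight with 1 µM tetrodotoxin and 100 µM D-AP5, and KCl was the same dose and time throughout. The labels' protocol counts the cortex of each embryo as a biological replicate. Culture day, RNA selection, guide and DMSO differ together between DIV7 and DIV18, so their parts in any difference between the days cannot be told apart.

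Transcript-assigned read totals ran from 24536056 to 30135576 at DIV7 and from 14510199 to 24024959 at DIV18. Smarcc2 was at 265 and 237 CPM (read counts scaled to the size of the library) in the resting NT libraries and at 47.1 to 64.1 CPM in the resting knockout with vector (log2 fold change -2.23, edgeR). It reached 756 to 1276 CPM in the resting addback libraries, where reads from the construct are counted too. Neuronal markers were abundant at both days (8 of 8 genes found, summed 3511 to 3527 CPM at DIV7 rest and 5092 to 5126 CPM at NT rest). Astrocyte markers were also present (7 of 7 found, 456 to 521 and 1390 to 1638 CPM), so the cultures were not pure neurons. Microglial markers summed to at most 9.12 CPM at DIV18. In bulk RNA, fewer cells of a type and less RNA per cell cannot be told apart.

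At DIV7 rest the members with the highest levels were C-type members and Pcdhga11. In TPM, a level that is divided by transcript length and scaled to the library and so allows genes to be compared, Pcdhgc3 was first at 69.8, followed by Pcdhga11 at 44.0, Pcdhac2 at 40.1 and Pcdhgc4 at 34.8. Pcdha12 was the second member of its cluster at 19.3 TPM, and Pcdhb9 and Pcdhb20 led Pcdhb at 12.5 and 9.29 TPM. The lowest member was Pcdhb1 at 0.32 TPM. By NT rest at DIV18 the order was different. Pcdhgc5 was first at 58.4 TPM, with both libraries (55.0 and 61.7) above both libraries of Pcdhgc3 (36.3 and 37.9), and Pcdhac2 (16.8) and Pcdhgc4 (7.36) came next, each apart from its neighbours beyond the spread of the libraries. Of the members below these, none had a mean above 4.50 TPM.

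Between DIV7 and DIV18 at rest most members were lower, and the C-type members did not move together. Pcdhgc5, which is known to bind GABA-A receptors, was 11.5-fold higher at DIV18, while most of the other variable members of Pcdha and Pcdhg were lower. Of 57 members, 38 passed the test (edgeR quasi-likelihood test over all genes, Benjamini-Hochberg adjusted p under 0.05), 3 of them higher and 35 lower at DIV18. The background was large, since 52.7% of all genes tested passed, with 26.8% of all genes tested higher and 25.9% lower. The median log2 fold change was -0.74 over the members and 0.007 over all tested genes.

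Pcdhgc5 was at 17.3 and 15.4 CPM at DIV7 rest and at 191 and 187 CPM at NT rest. Both DIV18 libraries were far above both DIV7 libraries (log2 fold change 3.53, SE 0.19, edgeR adjusted p = 2.1e-12). Pcdhac1 was low at both days, with 5.10 and 4.79 CPM at DIV7 and 8.78 and 6.03 CPM at NT rest. Its groups did not overlap (0.58, edgeR adjusted p = 0.018), but the call was lost without either DIV7 library (adjusted p = 0.058 and 0.094) and without NT replicate 1 (0.28, adjusted p = 0.36). Pcdhgc3, known for promoting dendrite branching in cortical neurons, was at 167 and 149 CPM at DIV7 and at 191 and 202 CPM at NT rest. Its groups did not overlap either (0.32, edgeR adjusted p = 0.034), and leaving out DIV7 replicate 2, NT replicate 1 or NT replicate 2 ended the call (edgeR adjusted p = 0.22, 0.073 and 0.16).

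The other C-type members took different courses. Pcdhgc4, which is needed for the survival of neurons, was at 75.7 and 83.4 CPM at DIV7 and at 40.2 and 41.7 CPM at NT rest. All 4 values were separated by group, with DIV18 lower (log2 fold change -0.96, edgeR adjusted p = 0.0023). Pcdhac2, known for the spacing of serotonergic axons, was at 114 and 118 CPM at DIV7 and at 113 and 112 CPM at NT rest. Its log2 fold change was -0.04 (edgeR adjusted p = 0.69).

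Among the 52 members that are not C-type, 34 fell and none passed in the other direction. The counts were 11 of 12 in Pcdha (median log2 fold change -1.08), 9 of 12 in the Pcdhga subfamily (-0.86), 5 of 6 in the Pcdhgb subfamily (-0.87) and 9 of 22 in Pcdhb (-0.39). Pcdhga11 was at 96.7 and 106 CPM at DIV7 and at 17.6 and 18.3 CPM at NT rest. These groups were far apart, and Pcdhga11 moved from second to outside the first 10 members by TPM (-2.49, edgeR adjusted p = 2.4e-11). Pcdha11 was at 29.6 and 31.8 CPM against 4.97 and 6.40 CPM (-2.43, edgeR adjusted p = 9.5e-08). Pcdha12, the most abundant of the alternately chosen Pcdha members at DIV7, fell by 1.40 on the log2 scale. Pcdha8 was the Pcdha member that did not pass (-0.41), and it was at most 3.27 CPM in these libraries.

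Within Pcdhb the change was smaller and less uniform. Pcdhb9, the most abundant Pcdhb gene at DIV7, was at 17.6 and 18.3 CPM at DIV7 and at 8.39 and 8.04 CPM at NT rest. Pcdhb20 was at 14.98 and 16.5 CPM and at 6.53 and 6.17 CPM. Both genes were lower in both DIV18 libraries and passed the test. Pcdhb1, the first gene of its cluster and one without the CTCF element, had 24 counts over the resting DIV7 libraries and 1 over the NT rest libraries, a ratio of 17.8 in CPM (95% interval 2.90 to 731, counting error only). Its call rested on few counts and was lost without DIV7 replicate 1 or NT replicate 2 (edgeR adjusted p = 0.086 and 0.10).

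**Figure D1:**
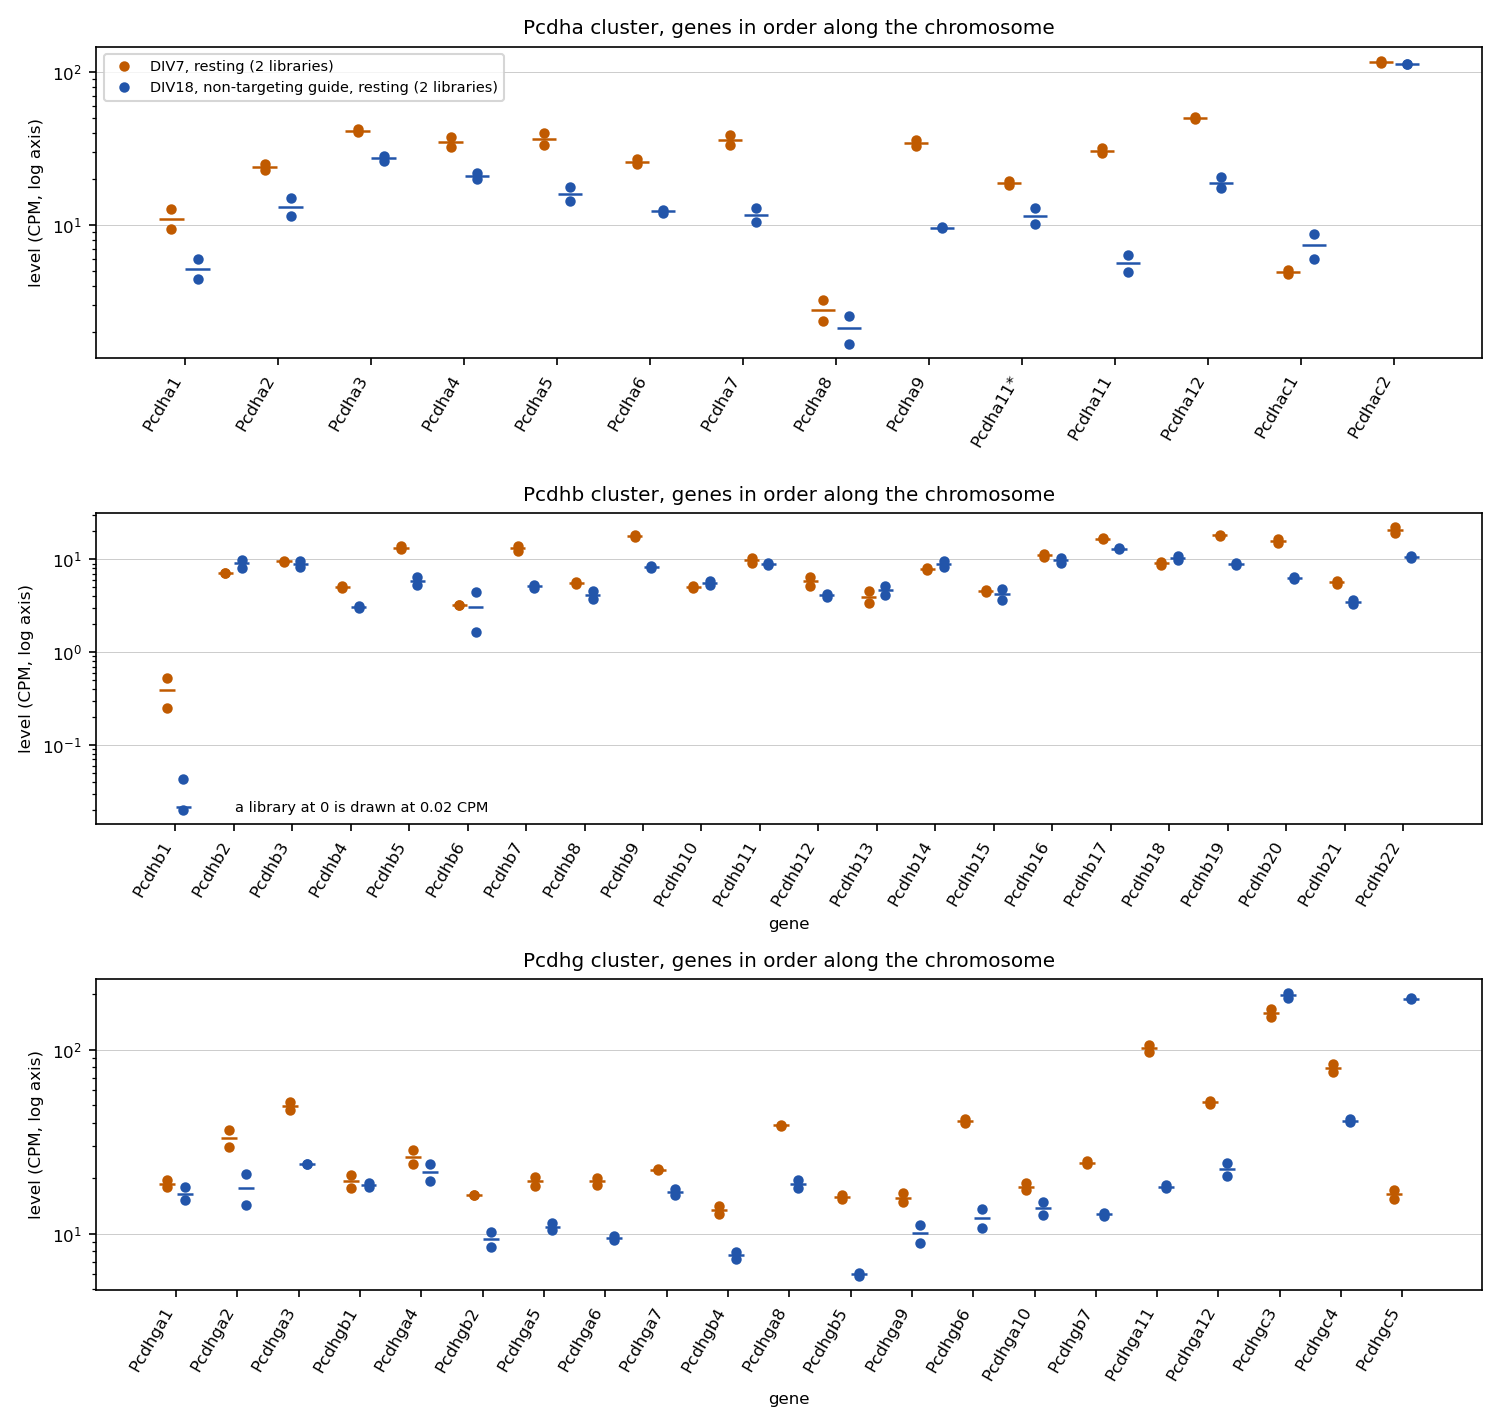
Level of each member in the resting DIV7 (orange) and resting DIV18 non-targeting (blue) libraries, in CPM on a log axis, with genes in chromosomal order; points are libraries and lines are group means of 2. Most members of Pcdha and Pcdhg lie lower at DIV18, Pcdhac2 lies at the same height at both days, and Pcdhgc5 lies 11.5-fold higher at DIV18.

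The plot of single members by day follows their order on the chromosome. The alternately chosen members of Pcdha, from Pcdha1 to Pcdha12, all lie lower at DIV18 in mean. The 3 members called higher and Pcdhac2 stand at the 3′ end of Pcdha and Pcdhg, next to the constant exons, but so does Pcdhgc4, which was called lower. Pcdhb genes are scattered between both patterns. A wider count used all DIV18 libraries whatever their construct or state. All 20 DIV18 libraries were above all 4 DIV7 libraries in 3 members and below them in 31, against backgrounds of 19.5% and 20.9% of all tested genes. The 3 were Pcdhgc5 (15.4 to 23.8 CPM at DIV7, 130 to 227 CPM at DIV18), Pcdhac1 (4.76 to 5.10, and 6.03 to 11.6 CPM) and Pcdhb14 (7.60 to 8.05, and 8.17 to 12.8 CPM), which was singled out after its values were seen. The 31 included 11 members of Pcdha, 6 of Pcdhb and 14 of Pcdhg.

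**Figure D2:**
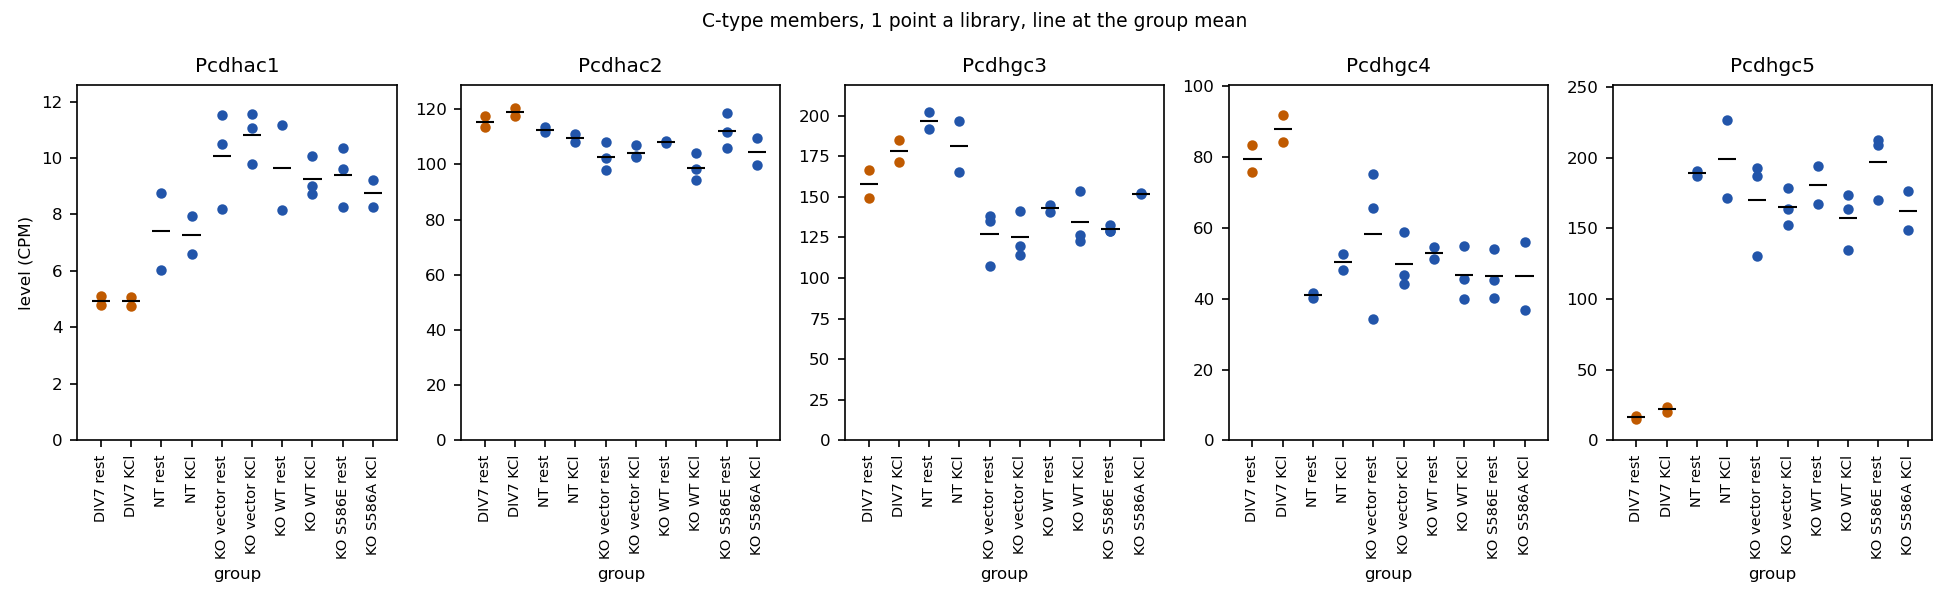
Level of the 5 C-type members in CPM in all 10 groups (orange DIV7, blue DIV18; KO marks Smarcc2 knockout); points are libraries and lines are group means. Pcdhgc5 is at most 23.8 CPM in the DIV7 libraries and at least 130 CPM in the DIV18 libraries. Among the DIV18 libraries Pcdhgc3 is highest in the 4 of the non-targeting guide, and the share of all genes that are so is not given.

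Within Pcdha and Pcdhg, the C-type members took a larger share of the RNA at DIV18. As a share of the cluster's TPM in a library, the C-type members of Pcdhg made up 31.9 to 34.7% at DIV7 and 61.1 to 70.7% at DIV18. Those of Pcdha made up 22.02 to 23.4% and 35.5 to 40.7%. The ranges of the days did not overlap in either cluster, over 4 and 20 libraries. Pcdhgc5 alone went from 2.26% ± 0.14 (SD, n = 2) of Pcdhg at DIV7 rest to 38.2% ± 1.96 (SD, n = 2) at NT rest, and Pcdhga11 from 12.5% ± 0.85 to 2.18% ± 0.11. Evenness can be given as the effective number of members, the exponential of the Shannon entropy of their shares, which equals the number of members when all are equal. It was 15.5 of 21 in Pcdhg at DIV7 rest and 8.58 at NT rest, 11.04 of 14 and 8.75 in Pcdha, and 18.8 of 22 and 19.6 in Pcdhb. The Pcdhb cluster, which has no C-type member, kept the most even spread.

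**Figure D3:**
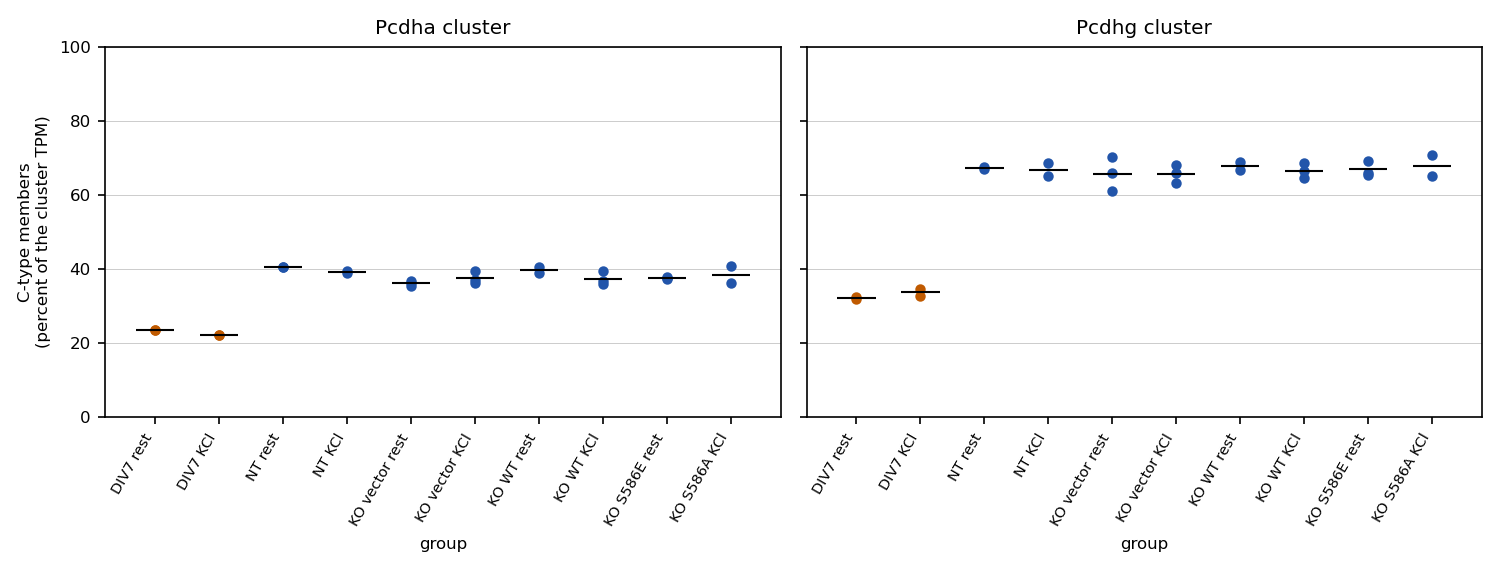
Share of C-type members in the summed TPM of Pcdha and of Pcdhg, in percent, in each library of the 10 groups (orange DIV7, blue DIV18; lines are group means). Pcdhg lies at 31.9 to 34.7% at DIV7 and at 61.1 to 70.7% at DIV18, with little difference among the DIV18 groups.

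Summed over members, Pcdha went from 468 ± 6.2 to 275 ± 7.8 CPM (SD, n = 2 each), Pcdhb from 209 ± 2.2 to 146 ± 0.3 CPM and Pcdhg from 797 ± 8.6 to 692 ± 2.7 CPM. As a ratio of the means, Pcdhg, which holds Pcdhgc5, differed least of the 3 sums. Without C-type members, Pcdha was at 347 and 155 CPM and Pcdhg at 543 and 266 CPM. The direction of some members depended on the scale. In TPM the median of all genes was itself lower at DIV18 (log2 ratio -1.28 over 21873 genes). On that scale 56 of 57 members were lower at DIV18 and 1, Pcdhgc5, was higher. Pcdhac2 and Pcdhb14 were thus lower in TPM too. Pcdhac1 and Pcdhgc3 were also lower (-0.64 and -0.91) but above that median by 0.65 and 0.37. Pcdhgc5 was higher on either scale (2.88 in TPM), and 47 of 57 members lay below the median of all genes in TPM.

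Depolarised cultures gave the same contrast between days. Of 57 members, 42 passed (53.6% of all tested genes), 2 higher and 40 lower (27.2% and 26.4% of all tested genes), and 37 members passed in both states with the same sign. Pcdhgc5 was at 23.8 and 20.03 CPM at DIV7 with KCl and at 172 and 227 CPM in NT with KCl (log2 fold change 3.18). Pcdhac1 was again higher (0.56, edgeR adjusted p = 0.024), a call lost without either DIV7 library or without NT replicate 2 (adjusted p = 0.14, 0.064 and 0.19). Pcdhgc3 was not among the calls under KCl (0.02). Marker genes of other cells also moved with culture day. At rest, 2 of 7 astrocyte markers and 5 of 8 oligodendrocyte-lineage markers were higher at DIV18 and 1 of the latter was lower, and the summed oligodendrocyte-lineage level went from 61.7 to 69.6 CPM at DIV7 to 200.8 to 210.9 CPM at NT rest. Their part in the protocadherin values was not tested.

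Related genes, some of them relatives and others of regulation or signalling, passed in both directions between the days at rest. The counts of each list are to be read beside the 26.8% of all tested genes that were higher and the 25.9% that were lower. Of 11 tested non-clustered protocadherins, the single-gene relatives, 2 rose and 4 fell, with Pcdh8 at -2.59 and Pcdh20 at 1.30 on the log2 scale. Of 11 large cadherins and Dscam genes, which carry related roles in recognition and polarity, 2 rose and 5 fell, led by Dchs1 (-2.50) and Celsr3 (-1.97). Of 11 genes for CTCF, cohesin and its loaders, 3 rose and 4 fell, with the cohesin subunits Stag2 at 1.02 and Smc3 at -0.93. Of 14 genes of promoter methylation and silencing, 3 rose and 5 fell, with Atf7ip, a partner of the histone methyltransferase Setdb1, at 1.46 and the methylcytosine oxidase Tet1 at 1.11. Of 19 genes of protocadherin processing and signalling, 7 rose and 5 fell, with Marcks, a substrate of protein kinase C, at -2.23 and Ptk2b, the kinase Pyk2, at 2.15. The median log2 fold changes of these lists were -0.17, -0.39, 0.13, -0.26 and 0.10.

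Depolarisation of DIV7 neurons for 30 minutes left the family near its resting level. Pcdhgc5 was the single member that passed the test, at 19.4 and 17.5 CPM at rest and 26.5 and 22.2 CPM with KCl. Its groups did not overlap (log2 fold change 0.40, SE 0.11, edgeR adjusted p = 0.047). The count of 1 of 57 stood against 17.0% of all tested genes. In the same libraries 10 of 10 early-response genes rose, with a median log2 fold change of 5.26.

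Small positive values were common among the members. Of 57, 47 had a positive log2 fold change, against 49.7% of all tested genes, and the median was 0.13 against -0.001. All members were measured in the same libraries, and those of Pcdha and Pcdhg share constant exons. Their signs are therefore not independent of each other. On the scale of the DIV7 libraries alone, the summed level went from 528 to 565 CPM in Pcdha and from 236 to 256 CPM in Pcdhb. In Pcdhg it went from 899 to 974.6 CPM, and in none of these sums did the 2 resting and 2 KCl libraries overlap. The sums come from the same few libraries and were not tested. The share of all genes separated in this way is not given. The Pcdhgc5 call was lost without DIV7 rest replicate 1, DIV7 rest replicate 2 or DIV7 KCl replicate 1 (edgeR adjusted p = 0.096, 0.19 and 0.19), and 3 members passed without DIV7 KCl replicate 2. It was also lost in DESeq2 (adjusted p = 0.061), with transcript-length offsets (0.14) and with protein-coding transcripts alone (0.13). The related lists are to be read beside the 17.0% of all tested genes that passed in either direction. Of 11 non-clustered protocadherins, 4 rose, including Pcdh7 (0.41) and Pcdh11x (0.39). Of 11 cohesin and CTCF genes, 5 rose, including Nipbl and Stag1 (both 0.33). Of the large cadherins and Dscam genes, Fat3 (0.38) and Fat1 (0.34) rose and 2 fell. Dnmt3b (-1.13) and Lbr (-0.57) fell in the methylation list, and Nckap1 (0.25) and Cyfip2 (0.19), subunits of the WAVE actin regulator, rose in the signalling list.

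At DIV18 no member passed for KCl against rest in any construct. The counts were 0 of 56 in NT, in knockout with vector and in knockout with WT, beside 0.00955%, 0.0716% and 0.0430% of all genes (edgeR), and DESeq2 also gave 0 in each. At an unadjusted edgeR p under 0.05 there were 1, 5 and 1 members. The members with the smallest unadjusted p were Pcdha10 in NT (10.0 and 12.7 CPM at rest, 6.35 and 9.24 CPM with KCl), Pcdhgb1 in knockout with vector (17.2 and 14.1 CPM as means of 3) and Pcdhga8 in knockout with WT (16.9 CPM as a mean of 2 and 12.9 CPM as a mean of 3). Of 10 early-response genes, 1, 8 and 6 passed as higher in these 3 comparisons, with median log2 fold changes of 1.81, 2.22 and 2.41. In NT their log2 fold changes ran from 1.52 (Nr4a1) to 4.73 (Npas4, edgeR adjusted p = 0.052). Large changes thus went uncalled there, and the absence of calls among the members does not show that they were unchanged. The test that the KCl response differed between NT at DIV18 and DIV7 passed for 0 of 57 members (1.82% of all genes; edgeR, 2 members at an unadjusted p under 0.05, DESeq2 0), so the responses were not shown to differ between the days.

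Against NT at rest, knockout with vector had lower Pcdhgc3 and higher levels of several Pcdhb genes, but these calls depended on single libraries. Of 56 tested members, 4 passed for knockout with vector against NT, beside 5.90% of all tested genes, so the share of members was near the background. Pcdhgc3 fell, and Pcdhb3, Pcdhb7 and Pcdhb20 rose, beside 3.77% of all genes lower and 2.13% higher. None of the 12 Pcdha members, 12 Pcdhga or 6 Pcdhgb members outside the C-type passed.

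Pcdhgc3 was at 188 and 198 CPM in NT and at 135, 132 and 106 CPM in knockout with vector. Every knockout library was below both NT libraries (log2 fold change -0.64, SE 0.11, edgeR adjusted p = 0.0035). Pcdhb3 was at 9.39 and 8.03 CPM in NT and at 16.7, 15.1 and 11.2 CPM in the knockout. The groups did not overlap (0.72, SE 0.17, edgeR adjusted p = 0.016), although the knockout libraries spread widely. Pcdhb7 was at 4.84 and 5.19 CPM in NT and at 8.51, 7.60 and 7.90 CPM in the knockout (0.67, edgeR adjusted p = 0.029). Pcdhb20 was at 6.41 and 6.06 CPM in NT and at 10.5, 9.07 and 7.96 CPM in the knockout (0.56, edgeR adjusted p = 0.032). All knockout libraries of Pcdhb7 and Pcdhb20 were above all NT libraries. The specific roles of single Pcdhb genes are little defined, and they share the adhesive function of the family.

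The calls depended on the few NT libraries. The count was 0 without NT replicate 2 and 2 without NT replicate 1, and 1 without knockout replicate 1. Pcdhgc3 kept its direction throughout, with a value of -0.60 and an edgeR adjusted p of 0.082 without NT replicate 2. Among the other C-type members, Pcdhgc5 was at 187 and 184 CPM in NT and 188, 183 and 128 CPM in the knockout, and Pcdhac2 at 111 and 110 CPM and 105, 100.0 and 96.0 CPM. Pcdhgc4 was at 39.5 and 41.0 CPM in NT and at 64.2, 73.4 and 33.7 CPM in the knockout. Its knockout replicate 3 stood below NT while the other 2 stood above, and without that library it passed (0.77, edgeR adjusted p = 0.021).

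Across Pcdhb, 20 of 21 tested genes had a positive log2 fold change at rest, against 52.1% of all tested genes, with a median of 0.36 against 0.02. The summed Pcdhb level was 143.5 and 143.2 CPM in NT and 173.9 to 206.2 CPM in the knockout, a 1.30-fold difference in means without overlap. The Pcdha and Pcdhg sums overlapped between the groups, at 264 to 276 and 268 to 297 CPM for Pcdha and at 678 to 682 and 517 to 684 CPM for Pcdhg. These sums have no test of their own. The Pcdhb genes were measured in the same few libraries, so their signs are not independent of each other in either state.

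**Figure D4:**
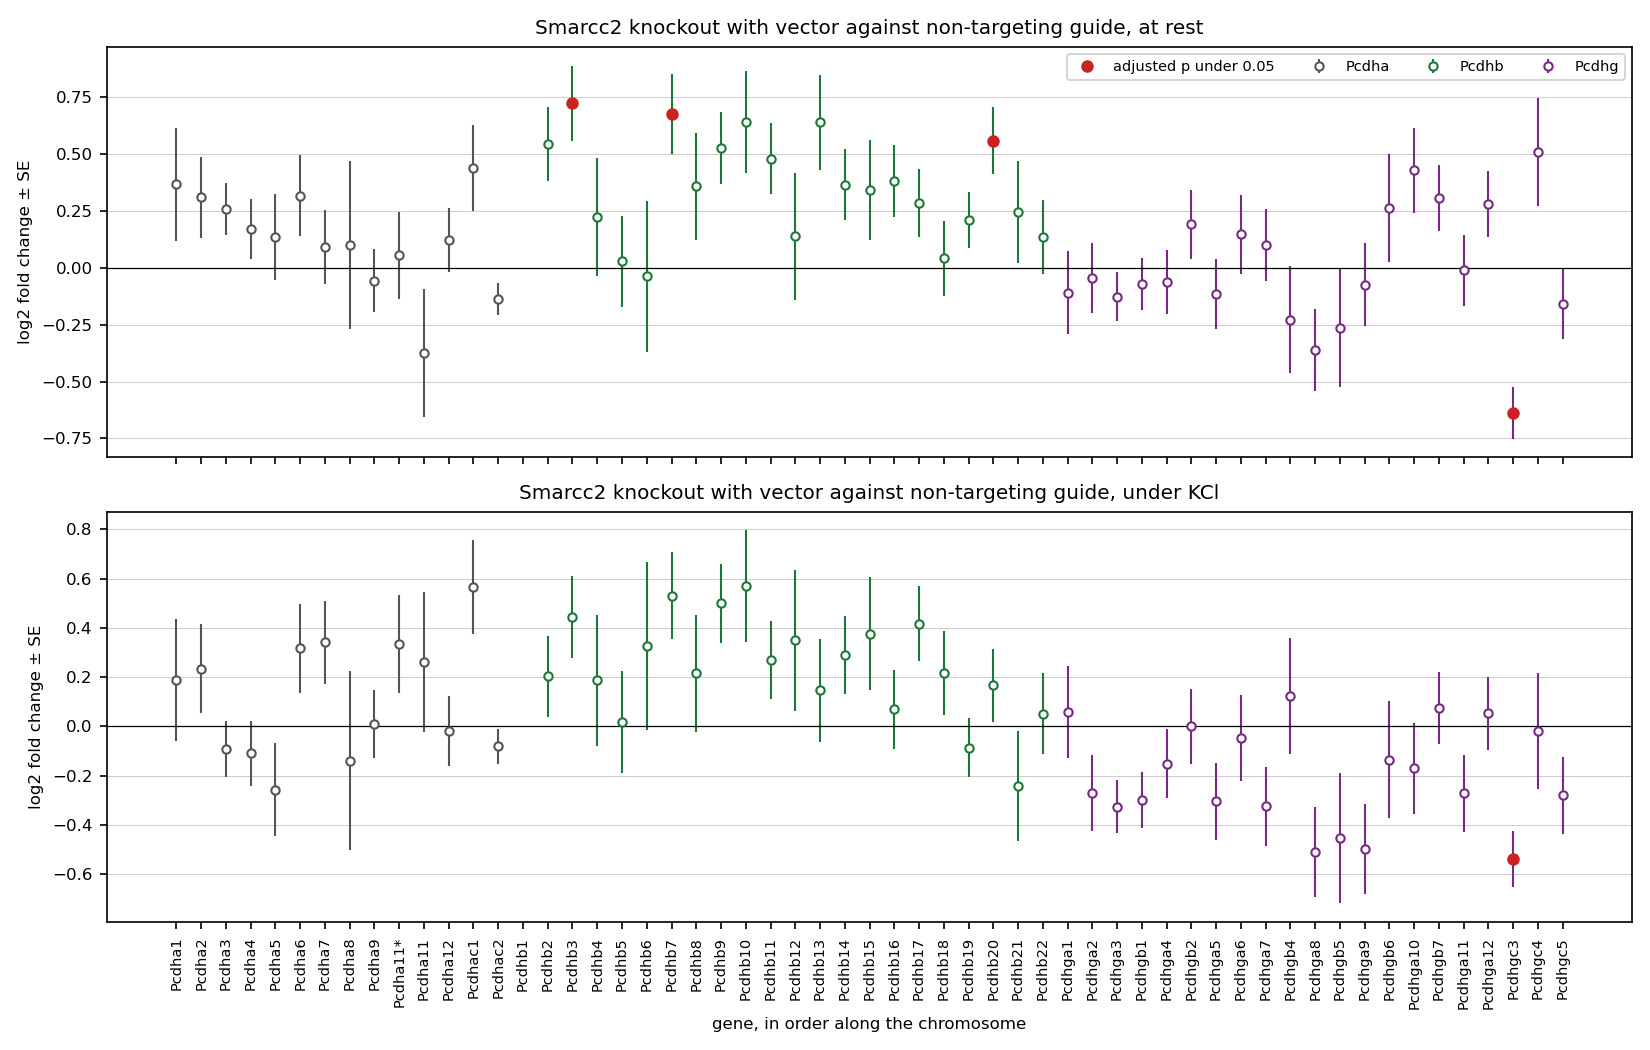
Log2 fold change with its standard error for each tested member, Smarcc2 knockout with vector (3 libraries) against the non-targeting guide (2 libraries), at rest and under KCl; filled red points have an adjusted p under 0.05. At rest 20 of 21 Pcdhb genes lie above 0 and 3 of them are red, and Pcdhgc3 is the lowest member in both states.

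The plot of the knockout effect by gene places these values along the chromosome. At rest, positive values make up 20 of 21 in Pcdhb, 10 of 12 in Pcdha outside the C-type (median 0.13), 4 of 12 in Pcdhga (-0.05) and 3 of 6 in Pcdhgb (0.06). Under KCl they make up 7 of 12 in Pcdha (0.10), 2 of 12 in Pcdhga (-0.27) and 3 of 6 in Pcdhgb (-0.07). Under KCl the knockout was again lower in Pcdhgc3, at 162 and 193 CPM in NT and 111, 138 and 117 CPM in the knockout. The groups did not overlap (log2 fold change -0.54, SE 0.11, edgeR adjusted p = 0.018), and this was the single call of 56 beside 2.67% of all genes. It was lost without NT replicate 2 (adjusted p = 0.33), knockout replicate 1 (0.081) or knockout replicate 3 (0.066). In Pcdhb, 19 of 21 genes were positive with a median of 0.22, none passed, and the sum was 126 and 150 CPM in NT and 163 to 165 CPM in the knockout. The rest and KCl values come from separate NT and knockout libraries. Same-numbered knockout libraries at rest and with KCl were however taken as paired by these data, so the states are not independent of each other. No member passed the test that the KCl response differed between knockout and NT (0 of 56, and 0% of all genes; edgeR, 2 members at an unadjusted p under 0.05, DESeq2 0).

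Markers of other cell types were also lower in the knockout. The summed astrocyte markers were at 1365 to 1609 CPM in NT and 902 to 1251 CPM in knockout with vector at rest, with 1 of 7 genes called lower, and at 1278 to 1767 and 739 to 868 CPM under KCl, with 3 of 7 lower. Oligodendrocyte-lineage markers were at 197 to 207 and 134 to 152 CPM at rest, with 4 of 8 lower and Sox10 at 0 in all 3 knockout libraries. Proliferation markers were at 34.8 to 56.3 and 18.2 to 22.2 CPM, with 3 of 5 lower. Neuronal markers overlapped at rest (4999 to 5037 and 4745 to 5450 CPM), but under KCl they were lower in all knockout libraries (4976 to 5379 and 4368 to 4603 CPM), with 1 of 8 genes called lower. The part of these cells in the Pcdhgc3 and Pcdhb values was not tested.

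The counts of the related lists in the knockout at rest are to be read beside 5.90% of all tested genes, with 2.13% higher and 3.77% lower. Of 11 non-clustered protocadherins, Pcdh20 (0.78) and Pcdh1 (0.52) rose. Of the large cadherins and Dscam genes, Fat3 rose (0.54) and Celsr1 fell (-1.19). No cohesin or CTCF gene of 11 passed in edgeR, and 2 had an unadjusted p under 0.05. Of 14 methylation and silencing genes, 3 fell, including the repressor Rest (-0.88) and the maintenance methyltransferase Dnmt1 (-0.48). Of 19 processing and signalling genes, 3 fell, including Cyfip2 (-0.31) and Nlgn2 (-0.27).

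Returning Smarcc2 to the knockout was not shown to move any member. For WT against vector, 0 of 56 members passed at rest and under KCl (0.0143% and 0.00955% of all genes; edgeR, 8 and 0 members at an unadjusted p under 0.05, DESeq2 0 and 0). Pcdhgc3 with WT addback was at 137 and 142 CPM at rest, above the 3 vector libraries (106 to 135 CPM) and below both NT libraries. Under KCl it was at 124, 150 and 120 CPM with WT, which overlapped the vector libraries. The summed Pcdhb level with WT was 156 and 163 CPM at rest, between the NT and vector libraries, and 151 to 156 CPM under KCl. In summed TPM the resting WT mean lay below that of NT (log2 ratio -0.14). At rest the member with the smallest unadjusted p was Pcdha6, at 9.58 and 10.3 CPM with WT and 13.2 to 16.6 CPM with vector (-0.60, edgeR adjusted p = 0.22). Under KCl it was Pcdhb10 (5.70 and 7.55 CPM as means of 3).

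Smarcc2(S586E), in which the serine is replaced by glutamate as in mimics of phosphorylation, was studied at rest. Against NT, 3 of 56 members passed, beside 2.78% of all genes (1.04% higher and 1.74% lower). Pcdhgc3 fell, at 126, 127 and 130 CPM against the same NT libraries at 188 and 198 CPM (-0.60, edgeR adjusted p = 0.014). Pcdhb7 rose, at 7.63, 7.81 and 9.19 CPM against 4.84 and 5.19 CPM (0.71, edgeR adjusted p = 0.036), and Pcdhb20 rose, at 10.0, 10.7 and 9.46 CPM against 6.41 and 6.06 CPM (0.69, edgeR adjusted p = 0.023). All 3 members had groups without overlap. The count was 0 without NT replicate 2 or S586E replicate 1, and 1 without NT replicate 1 or S586E replicate 2.

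These S586E values stand beside those of knockout with vector and share the NT libraries with them, so the comparisons are not independent of each other. The summed Pcdhb level was 177 to 193 CPM with S586E and 174 to 206 CPM with vector. Directly, S586E against vector passed for 0 of 56 members (0.0191% of all genes; edgeR, 2 at an unadjusted p under 0.05, DESeq2 0), with Pcdhgb7 at the smallest p (12.2 CPM against 15.4 CPM as means of 3). S586E against WT passed for 0 of 56 (0% of all genes; edgeR, 8 at an unadjusted p under 0.05, DESeq2 1). The member with the smallest p there was Pcdha7, at 14.01 to 15.6 CPM with S586E and 9.78 and 9.96 CPM with WT (0.60, edgeR adjusted p = 0.14).

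Smarcc2(S586A), in which the serine is replaced by alanine and cannot be phosphorylated, was studied under KCl. Pcdhgc3 was at 148 and 148 CPM, below the NT libraries with KCl (162 and 193 CPM) and above the vector libraries with KCl (111 to 138 CPM). No member passed against NT (0 of 56, 0.430% of all genes; edgeR, 6 at an unadjusted p under 0.05, DESeq2 1), WT (0, 0%; 3 and 0) or vector (0, 0.00955%; 4 and 0). Pcdhga9 had the smallest p against NT, at 5.21 and 7.46 CPM with S586A and 10.2 and 11.95 CPM with NT (-0.81, edgeR adjusted p = 0.097). Against WT it was Pcdha9 (7.84 and 10.1 CPM as means) and against vector Pcdha11 (3.22 and 5.88 CPM as means). WT against NT gave 0 members at rest (0.105% of all genes; edgeR, 3 at an unadjusted p under 0.05, DESeq2 0) and 0 under KCl (0.201%; 5 and 1), with Pcdhgc3 at the smallest p in both (-0.47 and -0.43, edgeR adjusted p = 0.21 and 0.14).

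**Figure D5:**
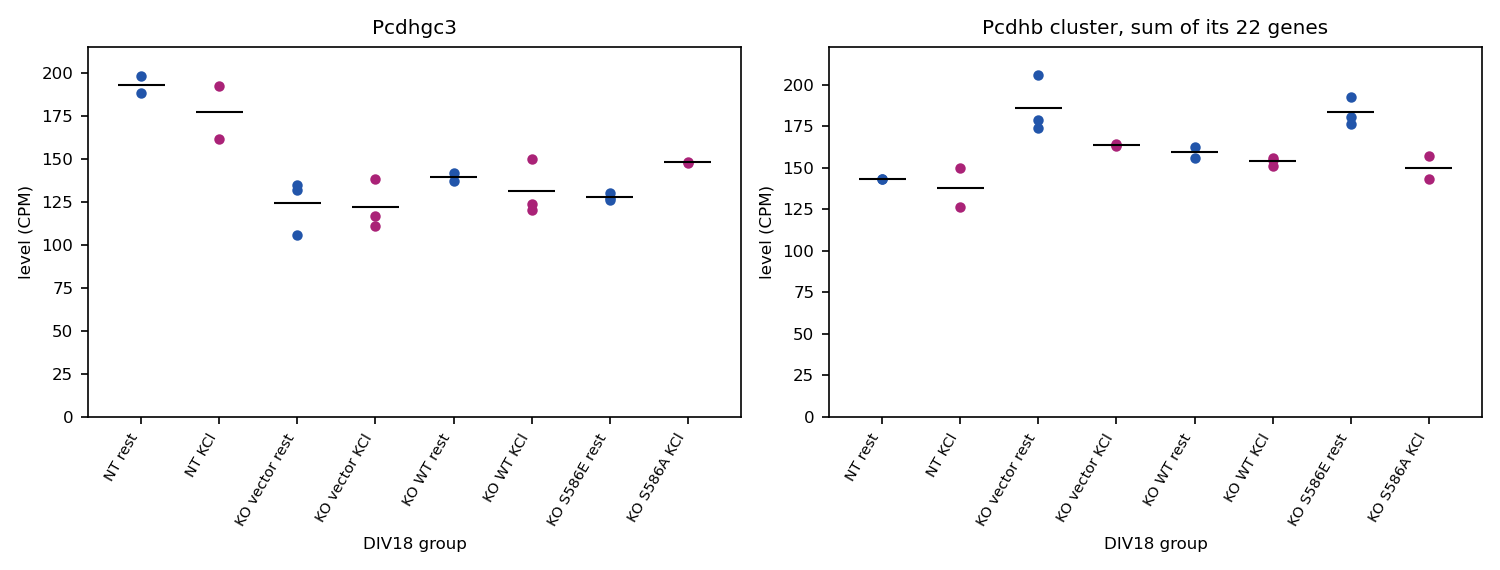
Level of Pcdhgc3 and the summed level of the 22 Pcdhb genes in CPM in the 8 DIV18 groups (blue at rest, magenta with KCl); points are libraries and lines are group means. Pcdhgc3 is at 162 CPM or more in the 4 non-targeting libraries. It is at 150 CPM or less in the 16 libraries of the Smarcc2 knockout with any construct. The share of all genes separated in this way is not given.

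In the plot of Pcdhgc3 by construct, the 16 knockout libraries, whatever was added back, lay between 106 and 150 CPM. The 4 NT libraries lay between 162 and 198 CPM. Pcdhgc3 had been called from these same NT libraries, so this separation is not separate evidence. The share of all genes separated in this way is not given here. Smarcc2 RNA was at 237 to 283 CPM in the NT libraries. It was at 47.1 to 64.1 CPM in knockout with vector and at 737 to 1339.9 CPM in the addback libraries. The guide and Smarcc2 RNA both differ between these sets, and the part of either was not tested. The C-type share of Pcdhg was alike across constructs, at 61.1 to 70.7% over the DIV18 libraries, and that of Pcdha was 40.5% ± 0.05 (SD, n = 2) in NT and 36.1% ± 0.58 (SD, n = 3) in knockout with vector at rest. Under KCl the Pcdha shares overlapped, at 38.9 to 39.4% in NT and 36.3 to 39.5% in knockout with vector. The differences among constructs that passed at DIV18 were in 4 members and did not exceed 0.72 on the log2 scale in size.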

How the data were processed

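Each of the 24 libraries came with a table of estimated counts and TPM per transcript, which the authors made with kallisto after FastQC and cutadapt, per the submitters' processing notes. Versions, genome build and transcript annotation are not given in the sources used here. Of 142552 transcripts, 141429 (99.2%) matched GENCODE M21 by identifier, and unmatched ones held at most 0.467% of the deposited counts. Deposited estimated counts were summed to 55177 genes and rounded, and deposited TPM values were summed in the same way.

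Members of Pcdha and Pcdhg share constant exons (median 53.3% and 45.0% of transcript length), so kallisto splits those reads and the counts of single members there are estimates. Pcdhb genes share a median of 0%.

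Tests used edgeR 4.0.16 (quasi-likelihood, TMM normalisation, filterByExpr, Benjamini-Hochberg over all genes, called at 0.05) in R 4.3.3, in 3 fits: DIV7 alone (19822 genes tested, 57 members), DIV18 alone (20940, 56 members, without Pcdhb1) and all libraries (22459, 57 members), the last for culture day. CPM values are on the scale of the fit named by the comparison, and the C-type plot uses that of all libraries. Alternatives were DESeq2 1.42.0, other size factors, no filter, a replicate block, length offsets, protein-coding transcripts only, leaving out each library, and the compared groups alone. In simulated data with 200 changed genes, 73% of log2 changes of 1 and 89% of log2 changes of 2 were recovered for knockout with vector against NT at rest, 54% and 89% for culture day at rest, and 75% and 98% for KCl at DIV7. Deviations of same-numbered libraries correlated above 0.1 in all 3 pairs for knockout with vector KCl against rest (0.105 to 0.296), WT against vector under KCl (0.151 to 0.308) and S586E against vector at rest (0.143 to 0.352), which were taken as paired by these data, and the block gave 0 calls there as without it.

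Named were the C-type members, the top 2 per cluster by TPM at DIV7 rest, and the called members or, beyond 6, the 3 largest each way. In comparisons without a call the member of smallest p was named, and other members were named after their values were seen. The members and lists were chosen with earlier results of these data known. The smallest Pcdhb1 values lie near 1 count, and intervals cover counting error only. Sequences are not reported here.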

Additional observations from a re-analysis of the deposited data

How the results depend on the processing

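Over all comparisons, 309 of the 352 other settings left a count of called members within 1.5 times, or a summed level within the spread between libraries. Of 530 alternatives for the named members, 465 kept direction and side of the threshold, 54 lost the call, 11 gained one and 0 turned the sign. In most comparisons 0 members were called, and a count that stays at 0 is taken as unchanged. The named members also include uncalled ones, which had no call to lose. These totals therefore say little about the comparisons with calls, whose counts moved as follows. For KCl against rest at DIV7 (1 member called), no low-count filter gave 2, the replicate block 6, length offsets 0, protein-coding transcripts only 0, DESeq2 0 and leaving out libraries 0 to 3. For knockout with vector against NT at rest (4), the replicate block gave 9, length offsets 2, protein-coding transcripts only 7, the compared groups alone 1 and leaving out libraries 0 to 6. Under KCl (1), no filter gave 2, the replicate block 2 and leaving out libraries 0 to 1. For S586E against NT (3), the replicate block gave 5, length offsets 1 and leaving out libraries 0 to 3. Where 0 members were called, no filter gave 1 and DESeq2 1 for S586E against WT and for S586A against NT, no filter gave 1 for WT against NT at rest, and no filter gave 3 and DESeq2 1 for WT against NT under KCl. For WT against NT, deviations of same-numbered libraries correlated above 0.1 in both pairs (0.158 at rest, 0.187 and 0.192 under KCl). The numbers did not pair the libraries in the other comparisons named here. The replicate block changed no other count by over 1.5 times (38 and 43 for culture day at rest and under KCl). In summed TPM, the log2 differences between days were -2.02 (Pcdha), -1.71 (Pcdhb) and -1.20 (Pcdhg), with KCl at DIV7 0.072 (Pcdha) and 0.083 (Pcdhb), and for the knockout -0.031 at rest and 0.074 under KCl (Pcdha), where summed CPM gave 0.06 and 0.01. Leaving out libraries gave 0.13 to 0.38 for summed Pcdhb in the knockout under KCl and 0.082 to 0.15 for summed Pcdhg with KCl at DIV7. The cause of these shifts was not tested. The number of libraries, 2 or 3 a group, limits what the tests can show, and a lone library left in a group was assumed to vary like the others.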
